A study of Saccharomyces cerevisiae with 10 samples.

Results

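The mRNA levels of 9 genes for the synthesis of inositol and of the major phospholipids were followed while budding yeast was moved from dextrose to ethanol. The genes were INO1, INO2, INO4, OPI1, CHO1, CHO2, OPI3, ITR1 and HNM1. They were taken by symbol from the table of probe sets, where each has a single probe set, and they are 9 of the 5449 genes measured. The samples came from a pooled culture of barcoded diploid strains of the S288c background, each with a pair of proteins tagged for a protein complementation assay (PCA), in which growth in methotrexate depends on the binding of the pair. The pool was grown in minimal medium (yeast nitrogen base with ammonium sulfate) and 2% dextrose, then moved to the same medium at 30 °C with methotrexate and, in place of dextrose, 2% ethanol. Total RNA came from the moment of transfer (0 h) and from 4 later times, 0.5 h, 1 h, 4 h and 12 h, with 2 arrays at each time and 10 in all. All 10 arrays carry the ethanol and methotrexate label, and the study's text gives the earlier culture as selective in one place and as non-selective in another, so the start of methotrexate and the change of carbon source cannot be told apart in a comparison with 0 h. By the labels, arrays of the same time are biological replicates, with no word on separate cultures, so the p-values measure the spread between these arrays, which may be technical. The labels do not give the inositol or choline content of the medium. Strains with tagged Hnm1 or Itr1 are part of the pool, and the part of the tag in the signal of these genes was not tested.

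In yeast the phospholipids are built from phosphatidic acid, which is turned into CDP-diacylglycerol in a reaction that uses CTP. From CDP-diacylglycerol the pathway branches: with inositol it gives phosphatidylinositol, and with serine it gives phosphatidylserine, which is decarboxylated to phosphatidylethanolamine and then methylated in steps to phosphatidylcholine. Many of these genes carry in their promoters an inositol-sensitive element that is bound by the Ino2-Ino4 activator. The Opi1 repressor acts through Ino2 and is held outside the nucleus while phosphatidic acid is abundant, so that the genes are known to be high without inositol and low when inositol and choline are supplied.

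The deposited values are intensities on a linear scale after robust multiarray analysis (RMA), a method that subtracts background, forces the same distribution on all arrays and combines the probes of a set. They ranged from 1.90 to 13817, with array medians from 316 to 351, and across genes the log2 values of replicate arrays correlated at r = 0.977 to 0.985. Differences are given as log2 fold changes of these intensities with their standard error (SE), from a single limma fit over all 10 arrays. A gene was called higher or lower where its Benjamini-Hochberg adjusted p over the 5449 genes was under 0.05. The number of arrays limits the precision. Values scaled in this way cannot show a change in total mRNA per cell, and in a pool a lower share of cells with a transcript and less transcript per cell cannot be told apart. For 5 genes used to check the shift, all calls passed: ADH2, PCK1 and ADY2 were higher and the hexose transporters HXT1 and HXT3 were lower at all 4 later times, with log2 fold changes of 7.75 for ADH2 at 0.5 h and −7.25 for HXT1 at 12 h. The 11 genes that diploids repress, such as those for mating, had a median of 9.05 to 17.8% of genes below them on an array, with STE2, RME1 and MFA1 reaching 43.4, 43.4 and 42.7%. Their summed intensity went from 1219 and 1439 at 0 h to 611 and 645 at 12 h, but not all moved alike: at 0.5 h 5 were lower and 2 higher, NEJ1 (2.67) and FUS3 (0.86). Their part in the values of the 9 genes was not tested.

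Most of the 9 genes were lower in ethanol than at 0 h. At 0.5 h, 6 were lower and 2 were higher, where 32.7% of all genes were lower and 30.1% were higher. At 1 h the split was 7 lower and 1 higher (33.4% and 29.3% of all genes). At 4 h 7 were lower (23.2% of all genes) and 0 were higher by limma (19.4% of all genes), also at an unadjusted p under 0.05. At 12 h 6 were lower (22.0% of all genes) and again 0 were higher by limma (21.4% of all genes) or at an unadjusted p under 0.05. The shares of all genes are those at an adjusted p under 0.05, and none was computed at an unadjusted p. INO2, INO4, OPI1, CHO2 and ITR1 were lower at each of the 4 later times, OPI3 and HNM1 at 3 of them, and CHO1 and INO1 were the only members called higher at any time. The share of all genes that were lower at 3 or 4 of these times was not computed. The median gene was 2.01-fold lower at 0.5 h, and in the order of the later times the median log2 fold changes were −0.81, −1.03 and −0.81, while the median of all genes lay between −0.09 and −0.05. The 4 comparisons share the 0 h arrays and are not independent of each other. At 0.5, 1, 4 and 12 h, both arrays lay below both of 0 h in 42.85, 43.22, 42.17 and 36.7% of all genes. They lay above in 39.44, 38.83, 32.68 and 32.67%. Both arrays of 12 h lay above both of 0.5 h in 38.04% of all genes and below in 36.02%. They lay above both of 4 h in 28.13% and below in 26.57%. Both arrays of 4 h lay above both of 0.5 h in 32.13% of all genes and below in 39.13%. No share was computed for 1 h against another later time or for several times together.

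**Figure D1:**
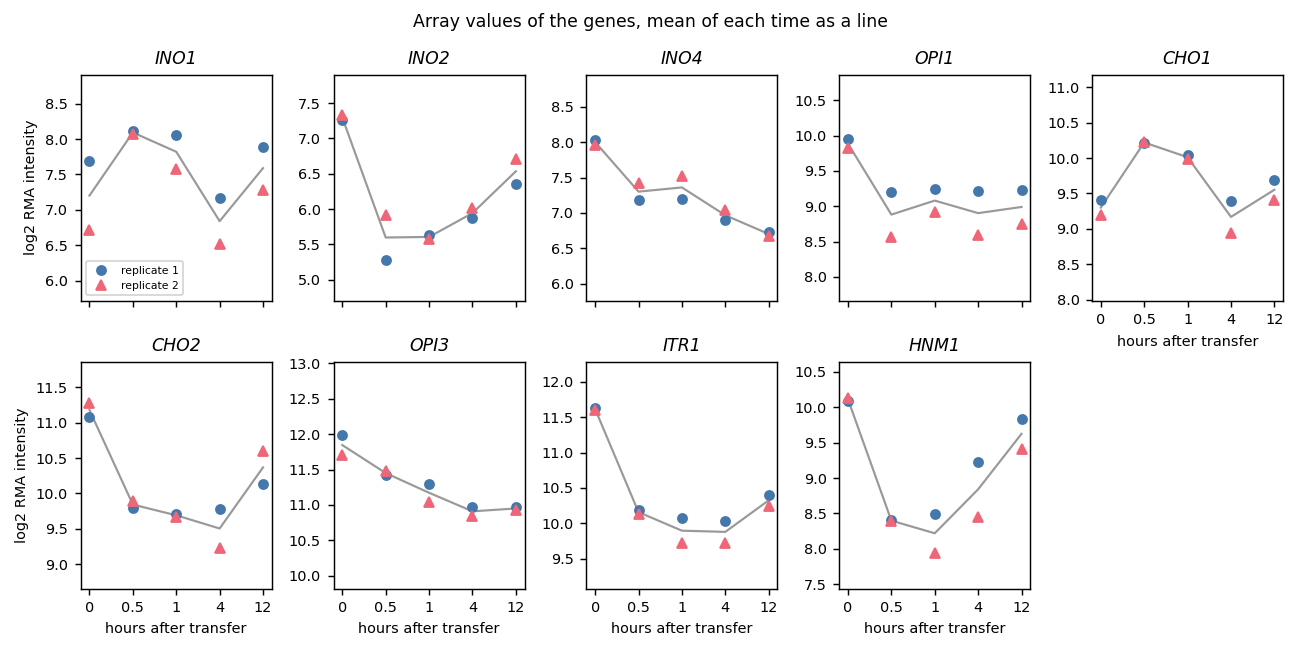
Log2 RMA intensity (y axis) of each of the 9 genes on each of the 10 arrays, against the time after transfer in hours (x axis, evenly spaced), with circles for replicate 1, triangles for replicate 2 and a line through the means. Each panel spans the same number of log2 units, so slopes can be compared but the axis values differ. INO1 and CHO1 stand highest at 0.5 h, and the other 7 genes stand highest at 0 h.

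The genes of the activator both fell. From 0.5 h to 12 h their estimates went opposite ways, a difference that was not tested. INO2 (YDR123C), the subunit that activates transcription and is bound by Opi1, had intensities of 154 and 160 at 0 h, 38.9 and 60.4 at 0.5 h, 49.8 and 47.7 at 1 h, 58.8 and 64.5 at 4 h, and 82.0 and 105 at 12 h. All 8 later arrays lay below both arrays of 0 h, and both arrays of 12 h lay above those of 0.5, 1 and 4 h. INO2 fell by 1.70 on the log2 scale at 0.5 h (SE 0.22, adjusted p = 0.000133), or 3.24-fold, and was lower, with −1.69 at 1 h (adjusted p = 0.00015), −1.35 at 4 h (adjusted p = 0.00119) and −0.76 at 12 h (adjusted p = 0.0194). Between 0.5 h and 12 h it rose by 0.94 (adjusted p = 0.00667). The 12 h call against 0 h was lost without 0 h replicate 1 (−0.79, adjusted p = 0.0625), without 0 h replicate 2 (−0.73, adjusted p = 0.0843) and without 12 h replicate 1 (−0.58, adjusted p = 0.107), and the rise from 0.5 h without 0.5 h replicate 1 (0.62, adjusted p = 0.0536). The signal was dim, with 7.25 to 25.8% of genes below it on an array.

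INO4 (YOL108C), the partner through which Ino2 binds DNA, had intensities of 263 and 250.4 at 0 h, 145 and 171 at 0.5 h, 147 and 184 at 1 h, 119 and 131 at 4 h, and 106 and 102 at 12 h. The arrays of 12 h were the lowest and those of 0 h the highest, with no overlap between 0.5 h, 4 h and 12 h. INO4 was lower at every later time, with log2 fold changes of −0.70 at 0.5 h (SE 0.17, adjusted p = 0.00488), −0.64 at 1 h (adjusted p = 0.00783), −1.03 at 4 h (adjusted p = 0.00118) and −1.30 at 12 h (adjusted p = 0.000267). INO4 was lower at 12 h than at 0.5 h (−0.60, adjusted p = 0.0156), the opposite direction to INO2 over the same interval, although this call was lost without 0.5 h replicate 2 (−0.48, adjusted p = 0.107) or 12 h replicate 2 (−0.58, adjusted p = 0.0512). The difference between both genes was not itself tested. The call at 1 h was lost without 1 h replicate 1 (−0.48, adjusted p = 0.0683).

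OPI1 (YHL020C), the repressor, was lower at all later times, with a wide spread. Its intensities were 993 and 902 at 0 h, 586 and 380 at 0.5 h, 605 and 484 at 1 h, 594 and 385 at 4 h, and 601 and 430.0 at 12 h. Both arrays of 0 h lay above all 8 later ones, and replicate 1 was the higher at each of the 5 times. OPI1 was 2.01-fold lower at 0.5 h (SE 0.28 on the log2 scale, adjusted p = 0.011). The log2 fold change was −0.81 at 1 h (adjusted p = 0.0302), −0.98 at 4 h (adjusted p = 0.0197) and −0.90 at 12 h (adjusted p = 0.0277). From 0.5 h to 12 h the change was 0.11, with a 95% interval of −0.52 to 0.74. Leaving out an array ended the call at each time. Without 0 h replicate 1 the adjusted p was 0.057, 0.118, 0.089 and 0.113 at 0.5, 1, 4 and 12 h, and without 0 h replicate 2 it was 0.0726, 0.0626 and 0.0769 at 1, 4 and 12 h. Without the second array of the later time itself the changes in the order of time were −0.69, −0.65, −0.67 and −0.65, with adjusted p of 0.0931, 0.155, 0.149 and 0.159.

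Of the genes that supply inositol, the synthase and the transporter went opposite ways at 0.5 h. INO1 (YJL153C) encodes inositol-3-phosphate synthase, the enzyme of the first step from glucose 6-phosphate to inositol. It had intensities of 206 and 105 at 0 h, 278 and 269 at 0.5 h, 267 and 192 at 1 h, 144 and 91.1 at 4 h, and 238 and 156 at 12 h. Both arrays of 0.5 h lay above all other arrays, and the arrays of 0 h overlapped with those of 1, 4 and 12 h. Replicate 1 was the higher at each time, and the pooled spread of INO1 was larger than that of 93.8% of genes. INO1 was higher at 0.5 h by 0.89 (SE 0.35, adjusted p = 0.0499), close to the threshold. That call was lost without 0 h replicate 2 (0.41, adjusted p = 0.359), without 0.5 h replicate 1 (0.87, adjusted p = 0.139) or replicate 2 (0.92, adjusted p = 0.121), and without either array of 1 h (adjusted p = 0.0546). At 1, 4 and 12 h the values were 0.62 (adjusted p = 0.152), −0.36 (adjusted p = 0.434) and 0.39 (adjusted p = 0.405), with a 95% interval at 4 h of −1.16 to 0.43. At 1 h INO1 was called higher without 0 h replicate 1 (1.11, adjusted p = 0.028), and the estimate ranged from 0.13 to 1.11 with any single array left out. With 14.7 to 44.3% of genes below it, INO1 was not among the bright genes on any array.

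ITR1 (YDR497C), the main inositol permease of the plasma membrane, had intensities of 3178 and 3097 at 0 h, 1167 and 1118 at 0.5 h, 1075 and 844 at 1 h, 1050.2 and 844 at 4 h, and 1355 and 1213 at 12 h. The later arrays all lay far below 0 h, and those of 12 h lay above the other 6. ITR1 was lower, with −1.46 at 0.5 h (SE 0.18, adjusted p = 9.69e-05), −1.72 at 1 h (adjusted p = 4.21e-05), −1.74 at 4 h (adjusted p = 9.15e-05) and −1.29 at 12 h (adjusted p = 0.000391). No call of ITR1 against 0 h was lost when any single array was left out. The values of 0.45 from 4 h to 12 h (adjusted p = 0.139) and 0.17 from 0.5 h to 12 h (adjusted p = 0.465) did not pass.

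The genes of the route from phosphatidylserine to phosphatidylcholine did not move together. CHO1 (YER026C), the phosphatidylserine synthase that opens the route, had intensities of 677 and 588 at 0 h, 1190.0 and 1198 at 0.5 h, 1054 and 1013 at 1 h, 675 and 490.4 at 4 h, and 827 and 681 at 12 h. The arrays of 0.5 h and 1 h lay above all others, those of 4 h overlapped with 0 h, and those of 12 h lay just above both arrays of 0 h. CHO1 rose by 0.92 at 0.5 h (SE 0.19, adjusted p = 0.00215), or 1.89-fold, and by 0.71 at 1 h (adjusted p = 0.00873). At 4 h and 12 h the values were −0.13 (adjusted p = 0.603) and 0.25 (adjusted p = 0.314), with 95% intervals of −0.56 to 0.29 and −0.18 to 0.68. The call at 0.5 h was kept with any single array left out, and the call at 1 h was lost without 0 h replicate 2 (0.61, adjusted p = 0.0584).

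CHO2 (YGR157W), the methyltransferase of the first methylation of phosphatidylethanolamine, had intensities of 2169 and 2478 at 0 h, 889.6 and 947 at 0.5 h, 840.5 and 812 at 1 h, 875 and 602 at 4 h, and 1124 and 1554 at 12 h. All later arrays lay below 0 h, and the arrays of 12 h lay above those of 0.5, 1 and 4 h. CHO2 was lower, with −1.34 at 0.5 h (SE 0.22, adjusted p = 0.000542), −1.49 at 1 h (adjusted p = 0.000311), −1.67 at 4 h (adjusted p = 0.000341) and −0.81 at 12 h (adjusted p = 0.0147). The 12 h call was lost without 12 h replicate 1 (−0.58, adjusted p = 0.0903) or 0 h replicate 2 (−0.71, adjusted p = 0.0844).

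OPI3 (YJR073C), the methyltransferase that completes phosphatidylcholine, had intensities of 4053 and 3341 at 0 h, 2737 and 2858 at 0.5 h, 2523 and 2107 at 1 h, 2004 and 1844 at 4 h, and 1999.7 and 1955 at 12 h. Its means were lower at each time up to 4 h, and the arrays of 4 h and 12 h overlapped. The value at 0.5 h was −0.40 (SE 0.16, adjusted p = 0.0588), which missed the threshold, and OPI3 was called lower without 0 h replicate 2 (−0.54, adjusted p = 0.0442). Lower calls followed, at −0.67 at 1 h (adjusted p = 0.00541), −0.94 at 4 h (adjusted p = 0.00181) and −0.90 at 12 h (adjusted p = 0.00199). Without 1 h replicate 2 the call at 1 h was lost (−0.54, adjusted p = 0.0506). The values of CHO2 were farther below 0 than those of OPI3 at 0.5, 1 and 4 h, and the difference between both genes was not tested.

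HNM1 (YGL077C), the plasma membrane permease for choline and ethanolamine, had intensities of 1093 and 1124 at 0 h, 339 and 335 at 0.5 h, 361 and 246 at 1 h, 601 and 349.7 at 4 h, and 914 and 683 at 12 h. The arrays of 12 h lay below 0 h and above all arrays between, and those of 4 h were far apart. HNM1 had the largest fall of the 9 genes at 0.5 h, −1.72 on the log2 scale (SE 0.28, adjusted p = 0.000506). INO2 stood close to it at −1.70 (SE 0.22), and the order of these genes was not tested. HNM1 was also lower at the next times, with −1.89 at 1 h (adjusted p = 0.000305) and −1.27 at 4 h (adjusted p = 0.00559). At 12 h the value was −0.49 (adjusted p = 0.186), with a 95% interval of −1.11 to 0.14. The 3 calls were kept with any single array left out.

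**Figure D2:**
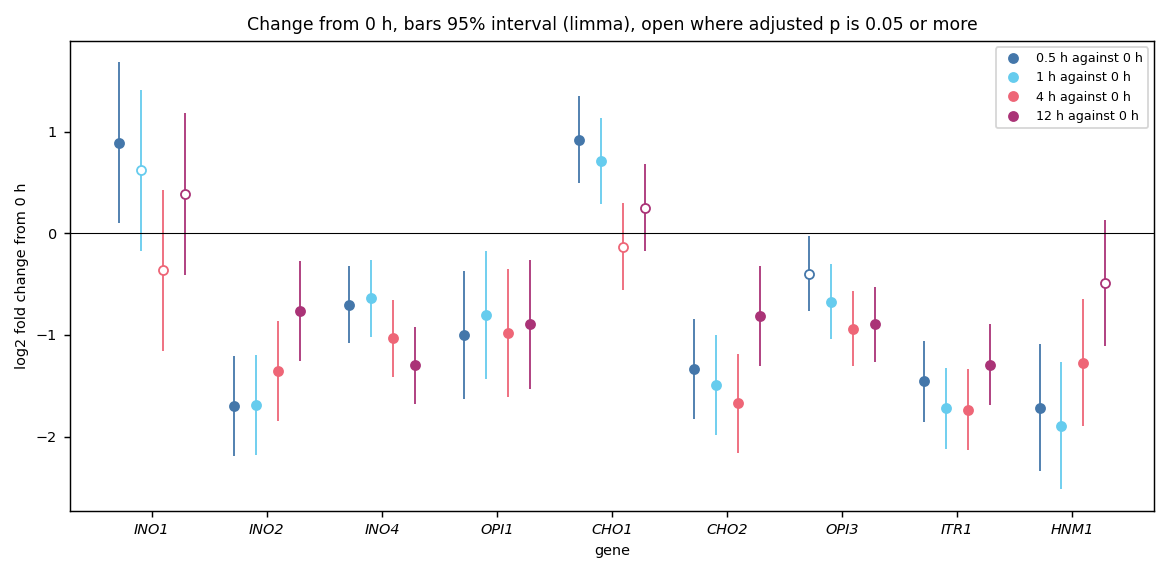
Log2 fold change from 0 h (y axis) of each of the 9 genes (x axis) at 0.5, 1, 4 and 12 h, in that order within a gene. Points are limma estimates, bars their 95% intervals, and open points those with an adjusted p of 0.05 or more. INO1 and CHO1 lie above 0 at 0.5 h and 1 h, 7 genes lie below 0 at every time, and of these INO2, OPI1, CHO2, ITR1 and HNM1 lie nearer to 0 at 12 h than at 0.5 h, with the rise from 0.5 h called for INO2 and HNM1.

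The changes after the first fall were compared directly. Between 0.5 h and 12 h, 2 of the 9 genes were higher (24.6% of all genes) and 3 were lower (23.0% of all genes), close to the shares among all genes. HNM1 rose by 1.23 (SE 0.28, adjusted p = 0.00568), or 2.34-fold, and INO2 by 0.94, as given with its levels. INO4, CHO1 (−0.67, adjusted p = 0.0167) and OPI3 (−0.50, adjusted p = 0.0308) were the genes called lower. The CHO1 call was lost without 0.5 h replicate 1 (adjusted p = 0.0665) or replicate 2 (adjusted p = 0.0675) or without 12 h replicate 2 (−0.53, adjusted p = 0.0851). The OPI3 call was lost without any single array of 0.5 h or 12 h, with adjusted p from 0.0733 to 0.123, and in a fit of only these arrays (−0.50, adjusted p = 0.0743). CHO2 stood at 0.53 (adjusted p = 0.0741), and was called higher without 12 h replicate 1 (0.76, adjusted p = 0.0369).

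Between 4 h and 12 h, 1 of the 9 genes was higher (6.83% of all genes) and 0 were lower by limma (4.50% of all genes) or at an unadjusted p under 0.05. This gene was CHO2, at 0.86 (SE 0.22, adjusted p = 0.0332). The call was lost without 4 h replicate 2 (0.59, adjusted p = 0.24), without 12 h replicate 2 (0.63, adjusted p = 0.118) and without either array of 0.5 h (adjusted p = 0.0506) or of 1 h (adjusted p = 0.0522). HNM1 (0.79, adjusted p = 0.103), INO1 (0.75, adjusted p = 0.203) and INO2 (0.59, adjusted p = 0.116) had positive values that did not pass. HNM1 was called higher without 4 h replicate 1 (1.18, adjusted p = 0.0353). At an unadjusted p under 0.05, 4 of the 9 genes were higher, and the share of all genes at that threshold was not computed.

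A comparison of 4 h with 0.5 h, added after the values were seen, called 3 of the 9 genes lower (14.1% of all genes). By limma 0 were higher (15.0% of all genes), also at an unadjusted p under 0.05. CHO1 fell by 1.05 between these times (SE 0.19, adjusted p = 0.00359) and kept this call with any single array left out. INO1 fell by 1.25 (SE 0.35, adjusted p = 0.0259), a call that was lost without 0.5 h replicate 1 (adjusted p = 0.0984), 0.5 h replicate 2 (adjusted p = 0.0896) or 4 h replicate 2 (−0.92, adjusted p = 0.134). OPI3 fell by 0.54 (adjusted p = 0.0346), which was lost without any single array of these times (adjusted p from 0.104 to 0.148). INO1 and CHO1 were thus the genes with a positive change at 0.5 h and a lower level again at 4 h.

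**Figure D3:**
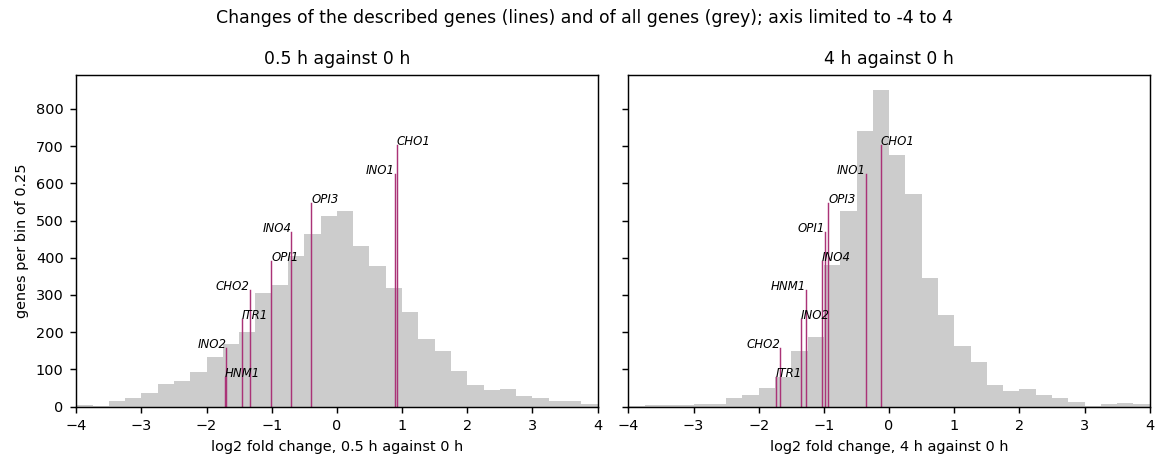
Number of genes (y axis, bins of 0.25) by log2 fold change (x axis) at 0.5 h against 0 h and at 4 h against 0 h for the measured genes in grey, with the 9 genes as labelled lines whose height has no meaning. Genes beyond the range of the axis are not drawn. At 0.5 h the 9 genes lie from −1.72 (HNM1) to 0.92 (CHO1), and at 4 h from −1.74 (ITR1) to −0.13 (CHO1).

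The members were set against each other by the root mean square difference of their mean log2 changes over the 4 later times, a measure with no test. INO1 and CHO1 were the closest pair (0.142), followed by INO2 and HNM1 (0.175) and by INO4 and OPI3 (0.258). The farthest pairs were CHO1 and ITR1 (2.03), INO1 and ITR1 (1.98) and CHO1 and HNM1 (1.97). Over all genes, those whose changes were most like CHO1 were SCT1 (0.0650), COQ6 (0.0811), SOR2 (0.106), EXO1 (0.124) and PBP2 (0.129). SOR2 (0.138), CHO1, SCT1 (0.151), EXO1 (0.165) and HOG1 (0.168) were the most like INO1, so 3 genes were in both sets. SCT1 encodes a glycerol-3-phosphate acyltransferase, an enzyme of the first step of phosphatidic acid synthesis. The SOR2 probe set is one that is shared with other sequences. All values of this kind share the 0 h arrays. The log2 change of INO1 from 0 h has a SE of 0.35 at each time. That is above its distances to CHO1 and to the other genes most like it, so their order is uncertain. The same holds for CHO1, whose SE of 0.19 is above its distances to the genes listed as most like it. For INO2 and HNM1 the SE, 0.22 and 0.28, are above their distance of 0.175.

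The other genes of lipid synthesis were described from lists of the pathway, beside the shares of all genes given above. In the route that uses free choline and ethanolamine (the Kennedy pathway), 4 of 6 genes were lower at 0.5 h and at 4 h, 5 at 1 h and, by 12 h, 2, with medians of −0.94, −1.13, −0.95 and −0.28 in the order of time. EPT1, the ethanolaminephosphotransferase, had an intensity of 315 ± 13.1 at 0 h and 122 ± 16.0 at 0.5 h, and had reached 235 ± 12.1 by 12 h (SD, n = 2). CPT1, the cholinephosphotransferase, fell by 1.04 at 0.5 h (adjusted p = 0.000416) and was still lower at 12 h (−1.09, adjusted p = 0.000625). CKI1, the choline kinase, was lower, with −1.07 at 4 h (adjusted p = 0.00287) and stood at −0.03 at 12 h (adjusted p = 0.92), and EKI1, the ethanolamine kinase, at −0.83 and −0.51 (adjusted p = 0.00353 and 0.0316). CKI1, EKI1 and EPT1 were higher at 12 h than at 0.5 h, by 0.85, 0.49 and 0.95 (adjusted p = 0.00773, 0.0354 and 0.00518).

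Among the 6 genes for the precursors, 2 were higher and 4 lower at 0.5, 1 and 4 h, and 1 was higher and 1 lower at 12 h. The CTP synthase genes went in opposite directions. URA7 fell from 1352 ± 91.0 at 0 h to 92.1 ± 5.98 at 0.5 h (SD, n = 2), a log2 fold change of −3.88 (adjusted p = 1.6e-05), and stood at −0.66 at 12 h (adjusted p = 0.148). URA8 rose from 320.2 ± 18.3 to 1328 ± 72.9 (SD, n = 2), by 2.05 (adjusted p = 1.95e-05), and was still higher at 12 h by 0.99 (adjusted p = 0.00232). CDS1, the CDP-diacylglycerol synthase, fell by 1.27 at 4 h (adjusted p = 0.00262) and stood at −0.36 at 12 h (adjusted p = 0.252). PSD1, the mitochondrial phosphatidylserine decarboxylase that links the products of CHO1 to the substrate of CHO2, was lower, with −1.57 at 0.5 h (adjusted p = 0.000122), −2.19 at 4 h (adjusted p = 4.69e-05) and −1.22 at 12 h (adjusted p = 0.00108). CHO1 stood above 0 h at 0.5 h while the genes of the next steps, PSD1 and CHO2, stood below it.

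The genes that make phosphatidic acid or exchange it with diacylglycerol were mainly higher early, with 9 of 12 higher and 2 lower at 0.5 h and a median of 0.97. The list holds genes of both directions, and some of those higher, such as LPP1, turn phosphatidic acid into diacylglycerol. Its counts and medians therefore do not show the synthesis of phosphatidic acid alone. At 4 h and at 12 h, 5 were higher and 2 lower than at 0 h. From 0.5 h to 4 h, 6 fell and 1 rose, with a median of −0.69, and from 0.5 h to 12 h, 7 fell, with a median of −0.51. GPT2, a glycerol-3-phosphate acyltransferase, rose from 663 ± 42.8 to 2848 ± 265 within 0.5 h and stood at 1071 ± 63.8 at 12 h (SD, n = 2), a log2 fold change of 2.10 (adjusted p = 1.58e-05) and then 0.69 (adjusted p = 0.0137). LPP1, a lipid phosphate phosphatase with a dim signal, rose from 28.0 ± 8.10 to 114 ± 8.10 at 0.5 h (SD, n = 2) and was higher by 1.83 at 12 h (adjusted p = 0.000451). AYR1, the acyl-dihydroxyacetone-phosphate reductase, was higher by 1.76 at 0.5 h and 0.80 at 12 h (adjusted p = 0.000225 and 0.0265). DGK1, the kinase that turns diacylglycerol back into phosphatidic acid, was lower, with −1.21 at 0.5 h (adjusted p = 0.000111) and −0.96 at 12 h (adjusted p = 0.000862). SCT1 was higher by 0.97 at 0.5 h (adjusted p = 0.00157) and stood at −0.13 at 4 h (adjusted p = 0.596).

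Of 3 further inositol genes, 1 was higher and 1 lower at 0.5 h. INM1, an inositol monophosphatase that acts after Ino1, fell from 1410.2 ± 219.9 at 0 h to 170 ± 4.26 at 0.5 h (SD, n = 2), a log2 fold change of −3.05 (adjusted p = 4.5e-06), and was lower, with −2.39 at 12 h (adjusted p = 2.23e-05). INM2, the other inositol monophosphatase, was higher by 0.67 at 0.5 h (adjusted p = 0.00591) and 0.69 at 1 h (adjusted p = 0.00516). ITR2, the minor inositol permease, stood between −0.23 and 0.17 at the later times with adjusted p from 0.266 to 0.466, while ITR1 was lower at each of them. INM2 and ITR2 were named after their values were seen. Of 12 genes that use phosphatidylinositol, 2 were higher and 2 lower at 0.5 h and 3 were lower at 12 h. VPS34, the phosphatidylinositol 3-kinase, fell by 1.26 at 12 h (adjusted p = 0.000472), and CSH1 and AUR1, of inositol sphingolipid synthesis, were lower, with −0.77 and −0.46 (adjusted p = 0.0318 and 0.0405). Of 6 further regulators, HAC1, the factor of the unfolded protein response that is needed for growth without inositol, was lower at 0.5 h by −1.12 (adjusted p = 0.00454) and at 12 h by −1.19 (adjusted p = 0.0056). UME6, a factor of early meiotic genes that also acts on this pathway, was higher by 0.92 at 0.5 h (adjusted p = 0.00158) and 0.57 at 12 h (adjusted p = 0.0283).

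Of 8 genes of phospholipid breakdown, 4 were higher and 2 lower at 0.5 h, and 2 were higher and 2 lower at 12 h. GDE1, which splits glycerophosphocholine, was lower, with −1.86 at 4 h (adjusted p = 0.000115) and −1.44 at 12 h (adjusted p = 0.000389). Its distance to ITR1 was 0.160, behind SLT2 (0.0693), HTD2 (0.0845), PIN2 (0.0926) and MAC1 (0.151). That distance is below the SE of ITR1 (0.18), and genes like ITR1 were outside the rule for naming genes by distance. The phospholipase B genes differed, with PLB1 lower (−0.74, adjusted p = 0.00709) and PLB2 higher (1.57, adjusted p = 0.0025) at 12 h. GIT1, a permease for glycerophosphoinositol, was higher at 12 h by 0.94 (adjusted p = 0.0297). The signals of PLB2 and GIT1 were dim, with 7.14 to 28.9% and 6.70 to 16.2% of genes below them on an array. In cardiolipin synthesis 2 of 5 genes were higher at 0.5, 1 and 4 h, and the list had a median of −0.28 at 12 h. From 0.5 h to 12 h, 3 of the 5 fell, with a median of −0.68. TAZ1, which remodels cardiolipin, was higher by 1.45 at 0.5 h (adjusted p = 0.000528) and stood at 0.54 at 12 h (adjusted p = 0.0944), and CLD1, a cardiolipin lipase, was higher by 0.55 at 4 h (adjusted p = 0.0256).

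The fatty acid genes known to carry the same inositol-sensitive element ended above where most of the 9 genes did. FAS1 and FAS2, the subunits of fatty acid synthase, were lower, with −1.25 and −1.95 at 0.5 h (adjusted p = 0.000185 and 1.36e-05) and stood at 0.30 and −0.36 at 12 h (adjusted p = 0.18 and 0.105). ACC1, acetyl-CoA carboxylase, went from 3365 ± 336 at 0 h to 7765 ± 196 at 12 h (SD, n = 2), by 1.21 (adjusted p = 0.000307). ACS2, an acetyl-CoA synthetase, was higher by 1.31 at 4 h (adjusted p = 0.000362) and at 12 h (adjusted p = 0.000304). All 4 of these genes were higher at 12 h than at 0.5 h, with a median of 1.49, beside a median of 0.11 for the 9 genes. A test of the difference between the lists was not made.

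**Figure D4:**
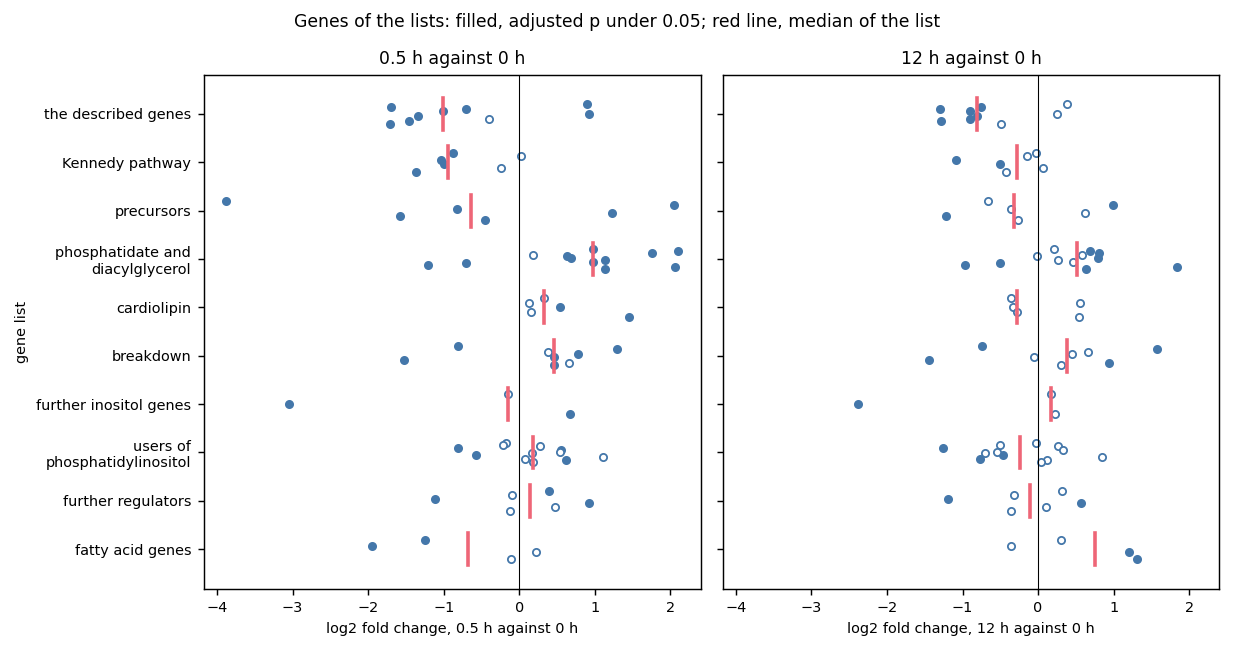
Log2 fold change (x axis) of the 9 genes and of the genes in 9 lists of lipid metabolism (y axis), at 0.5 h against 0 h and at 12 h against 0 h. Each point is a gene, filled where its adjusted p was under 0.05 and open otherwise, and the red line is the median of the list. The 9 genes have a median of −0.81 at 12 h, and the list of phosphatidic acid and diacylglycerol, with genes of both directions, has one of 0.97 at 0.5 h.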

How the data were processed

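Total RNA of the 10 samples was hybridised to Affymetrix arrays of 1 colour. By the methods and the processing notes, the authors read the arrays with MAS5 and processed them by RMA, and the deposited table holds the intensity of 5716 probe sets on a linear scale. For RMA, no version is given in the sources used here. All 10 columns were used, and no value was missing. Probe sets were named from GEO's platform table, which gives 1 symbol for 5498 and none for 218. The brightest probe set of each gene was kept, which set 49 aside and left 5449 genes, of which 115 rest on a probe set shared with other sequences. None of these 115 is among the 9 genes described. Symbols of 12 genes were updated through the RefSeq gene table of assembly R64, from which no coordinates were used, and promoter sequences are not analysed here.

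The log2 of the deposited intensity was compared with limma 3.58.1 in R 4.3.3, without further scaling or filter, in a single fit of 5 times (5 residual and 4.33 prior degrees of freedom). Benjamini-Hochberg adjustment was over all genes, and the threshold was 0.05. The fit was tested on simulated data with 200 of 5449 genes changed. In the order 0.5, 1, 4 and 12 h, recovery was 79, 89, 76 and 75% for 2-fold and 100, 99, 100 and 100% for 4-fold changes, and 4.79, 6.47, 6.88 and 7.41% of its calls were false. Far fewer genes changed there than were called in the real arrays.

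By symbol 10 genes were found for the pathway, of which 1 is not reported here. It stayed in the fit and is left out of all counts and medians of the 9 genes. The genes and the pathway lists were chosen with earlier results of these data known. From each list up to 4 genes were named, those with the largest absolute change among the genes called at 4 h or 12 h against 0 h, and the 5 genes most like INO1 and CHO1 were named by their distance. GDE1 is named by the first of these rules, and INM2 and ITR2 by neither. The alternatives were the replicate number as a block, median centring, quantile normalization, a pseudocount of 32, the dimmest 25% of genes left out, an intensity trend, only the arrays of the times compared, the mean of a gene's probe sets, and each array left out in turn. Figures were drawn with matplotlib 3.10.9 in Python 3.11.15.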

Additional observations from a re-analysis of the deposited data

How the results depend on the processing

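No change of the 9 genes that was called, under the main settings or an alternative, took the other sign. The numbers that follow include changes not called with all arrays, which have no call to lose. They also include fits without an array of a time not compared, where the change itself stays the same. They are therefore no measure of how stable the calls are. Over the 7 comparisons, 579 of the values with 1 array left out stayed on the same side of the threshold, 47 fell short of it and 4 came past it; under the other alternatives these numbers were 480, 3 and 7. With an array left out, the number of the 9 genes called at 12 h against 0 h ranged from 3 to 6 (6 with all arrays, 3 without 0 h replicate 2), at 12 h against 0.5 h from 2 to 5 (5 with all arrays), at 12 h against 4 h from 0 to 2 (1 with all arrays) and at 4 h against 0.5 h from 1 to 3 (3 with all arrays). At an unadjusted p under 0.05 the limma fits of 12 h against 4 h with an array left out called 2 to 5. Leaving out the dimmest 25% of genes gave 3 at 12 h against 0.5 h, because INO2 and INO4 are then not tested. The only other call lost at 12 h against 0.5 h under these alternatives was that of OPI3 with only the arrays compared. For 12 h against 4 h, median centring gave 0 and the fit with only the arrays of these times 0, each with 4 at an unadjusted p under 0.05. The cause was not tested. No share of all genes was computed to set beside the counts at an unadjusted p. OPI3 at 0.5 h came past the threshold with a pseudocount of 32 (adjusted p = 0.0358), an intensity trend (adjusted p = 0.0353) or the dimmest genes left out (adjusted p = 0.0463).

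Deviations of same-numbered arrays correlated at 0.0267 to 0.565 over the 10 pairs of times, over 0.1 in 8 of them. As this did not hold for every pair and the labels name nothing that a number shares, the main fit was not paired. The study's methods describe aliquots harvested over time from a pool culture, so arrays of the same number may share a culture. A shared effect of the replicate number is possible. With the replicate number as a block, 9, 9, 7 and 6 of the 9 genes were called at 0.5, 1, 4 and 12 h against 0 h, 5 at 12 h against 0.5 h, 3 at 12 h against 4 h (INO1, HNM1 and CHO2) and 3 at 4 h against 0.5 h. The calls gained against 0 h were OPI3 at 0.5 h (adjusted p = 0.0332) and INO1 at 1 h (adjusted p = 0.0233). Among all genes the calls of 12 h against 4 h went from 617 to 1066 with the block, to 353 with only the arrays of these times, and to between 258 and 668 with an array left out. Those of 4 h against 0 h went from 2321 to 1383 without 4 h replicate 2, and those of 4 h against 0.5 h from 1583 to 683 without 4 h replicate 1. INO2 and INO4 are among the dimmest 25% of genes. With 2 arrays at a time, the call of INO1 at 0.5 h in the fit without the block rests on single arrays.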
